A study of Homo sapiens with 4 samples.

Results

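Kallikreins and prostate secretory proteins are the products by which a luminal prostate cell is best known. The genes described here were KLK2, KLK3, KLK4, KLK11, KLK15, ACP3, MSMB, TGM4 and AZGP1. They were taken by symbol, and every probe set that the platform annotation gives to 1 of these 9 genes is reported, 27 probe sets of the 51965 in the series. A probe set is a group of short probes read together, meant for 1 transcript though some can match more than 1. Its value is given as log2 intensity throughout. The arrays measured RNA of LNCap, a human prostate tumor cell line that responds to androgen, grown in regular culture medium with serum. The LNCap ERG cells carried a lentivirus for the ETS transcription factor ERG fused to red fluorescent protein, and the LNCap Vector cells carried the lentivirus for the fluorescent protein by itself. Each group had 2 arrays. Separate cultures or transductions are not stated for them, so the p-values measure no more than array-to-array spread, possibly technical.

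Kallikreins are secreted serine proteases whose genes lie side by side on chromosome 19. In the prostate KLK2 and KLK3 are switched on by androgen and released into seminal fluid, where they form a cascade of proteases that liquefies the clot made by the semenogelins. The other secretory genes make a phosphatase (ACP3), a small cysteine-rich protein (MSMB), a transglutaminase (TGM4) and a lipid-binding glycoprotein (AZGP1), which are also delivered to seminal fluid by luminal cells. Their secretion is a standard sign of luminal identity.

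The 4 arrays were alike, with Pearson correlations of 0.995 to 0.997 between pairs over all probe sets. A level for genes that prostate cells should not use was set by 43 genes of other organs, whose 76 probe sets had a 95th percentile of 5.98. ERG itself did not check the labels. Its 4 probe sets lay at 2.65 to 3.58 on all arrays, far below that level, with log2 fold changes of -0.24 to 0.12, and whether they can read the transduced ERG was not tested. Of 7 luminal genes measured, 6 had a probe set above that level on all arrays, among them KRT8, KRT18, HOXB13 and FOLH1. None of the 4 basal, 4 immune or 4 endothelial genes measured had one. Of the 5 neuroendocrine genes ENO2 did (log2 fold change 0.28), and of the 7 stromal genes COL1A1, at 8.79 and 8.69 in the LNCap ERG arrays and 8.39 and 8.33 in the LNCap Vector arrays for the brightest of its probe sets. Over the 25 stromal probe sets the mean level was 3.93 and 3.85 in LNCap ERG and 3.83 and 3.89 in LNCap Vector, and a part of these genes in any result was not tested. The array values are of bulk RNA, in which fewer cells that make a transcript and less of it per cell cannot be told apart.

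No member probe set passed limma's test between LNCap ERG and LNCap Vector after adjustment over all 51963 probe sets with complete values. The adjusted p ran from 0.50 to 1.0 over the 27. In the whole table none passed either (0% called), and limma put 2105 probe sets on the higher side and 2105 on the lower with p under 0.05 before adjustment, 4.05% in each direction. Of the members, 1 lay on the higher side (ACP3) and 2 on the lower (both KLK2) by that measure. The t-test of the study's methods passed 1 probe set of the table after adjustment (0.00192%) and no member. Before adjustment it had p under 0.05 at 7.11% of the table and at 5 of the 27 members, 2 of KLK3 and 1 each of KLK4, KLK15 and ACP3. The log2 fold changes of the 27 ran from -0.35 to 0.56, with a median of -0.02. Both LNCap ERG arrays lay above both LNCap Vector arrays at 7 member probe sets and below them at 6, where 18.8% and 19.4% of all probe sets did so.

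Only part of the members could be read well. All 4 arrays lay above the level of other organ genes at 11 probe sets of 6 genes, KLK2, KLK3, KLK4, KLK15, MSMB and AZGP1. One further probe set, of ACP3, was above it on 3 arrays and just under it on the other. The remaining 15, including all those of KLK11 and TGM4, were below it on every array, at 2.56 to 5.74, with log2 fold changes of -0.35 to 0.21. Among the 11 the groups separated upward at 4 (KLK4 and AZGP1) and downward at 4 (KLK2 and KLK3), against a background of 22.0% and 25.9% of the 14510 probe sets as bright. Before adjustment limma gave p under 0.05 for 0 of the 11 on the higher side and 2 on the lower, against 3.75% and 4.30%. The median log2 fold change was -0.03 over the 11 and -0.01 over the 14510.

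**Figure D1:**
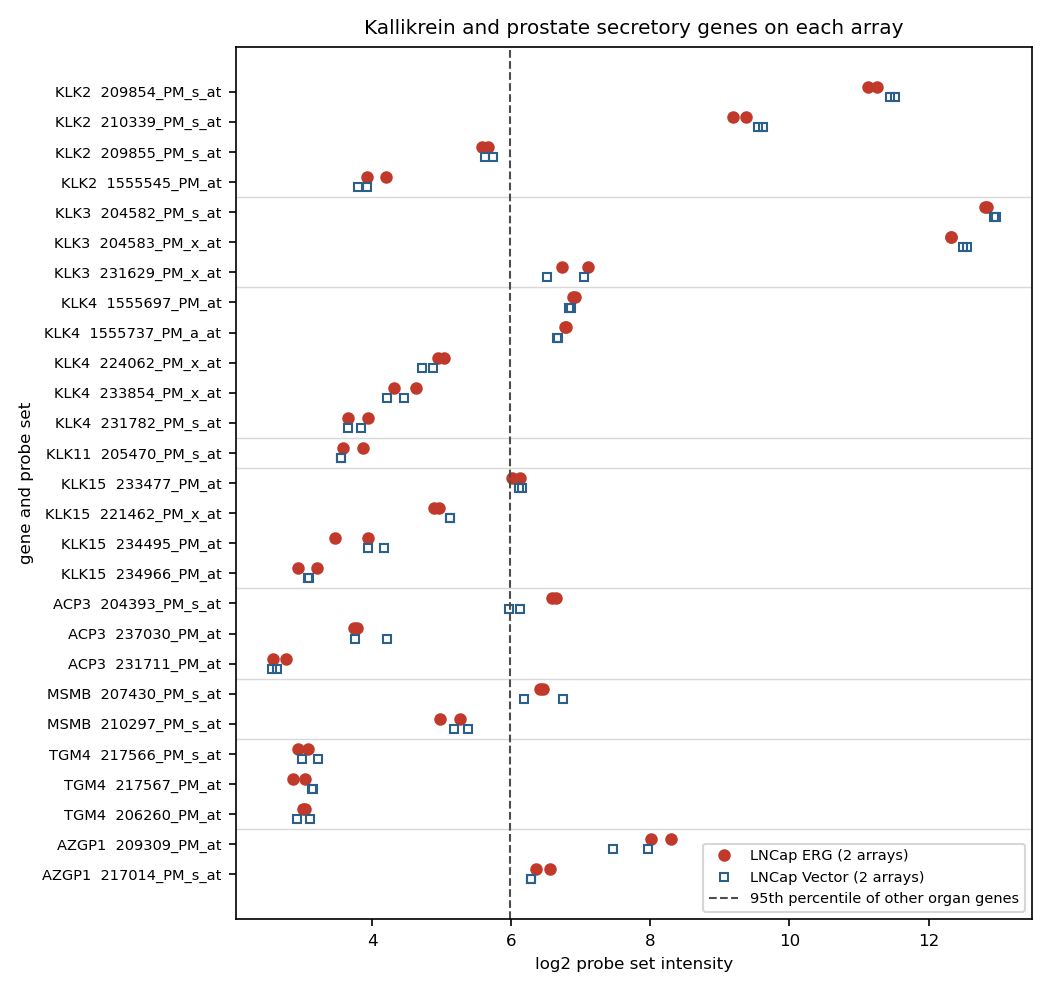
Level on each array (x axis, log2 intensity) for the 27 probe sets of the 9 genes (y axis). Filled circles are the 2 LNCap ERG arrays, open squares the 2 LNCap Vector arrays, and a dashed line stands at the level of other organ genes, 5.98. The 4 KLK2 and KLK3 probe sets farthest to the right have both circles left of both squares, while the first ACP3 probe set has them to the right.

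KLK2 and KLK3 are the members under the best known androgen control, and their promoters are shown because their brightest pair of probe sets each had lower values in both LNCap ERG arrays. The windows are the 250 bases before the gene start in RefSeq, GRCh38.p14, at chr19:50873189-50873438 for KLK2 and chr19:50854665-50854914 for KLK3, both on the plus strand and written 5′ to 3′. The capitals mark the match to GAACANNNNGTNCT, the pattern of the androgen response element known from the KLK3 promoter, searched on both strands.
KLK2: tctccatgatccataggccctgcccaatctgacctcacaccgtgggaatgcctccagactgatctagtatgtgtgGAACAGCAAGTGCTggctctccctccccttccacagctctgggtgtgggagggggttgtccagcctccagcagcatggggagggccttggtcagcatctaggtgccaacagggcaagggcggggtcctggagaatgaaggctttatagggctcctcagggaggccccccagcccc
KLK3: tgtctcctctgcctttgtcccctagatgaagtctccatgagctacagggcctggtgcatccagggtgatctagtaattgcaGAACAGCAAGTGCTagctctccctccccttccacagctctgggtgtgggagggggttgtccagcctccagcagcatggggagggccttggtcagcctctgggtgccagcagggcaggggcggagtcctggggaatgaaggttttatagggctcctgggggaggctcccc

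The marked 14 bases were the same in both promoters, beginning 175 bases before the start of KLK2 and 169 bases before that of KLK3. Over windows of 300 bases, which add the 50 bases after the start, the pattern stood in 0.248% of 35116 RefSeq windows, and in none of the other 9 windows of the members. Windows were found for 8 of the 9 genes, 11 in all. The KLK3 match overlaps the shorter androgen pattern AGAACA, which begins at the base before it and stood in 14.8% of windows, and the KLK2 match overlaps a GGAA, the core letters that ETS factors bind, which stood in 95.5%. A longer ETS pattern, CCGGAA (17.3% of windows), was found in neither, and another androgen pattern, GNACANNNTGTNC (0.390%), in no member window. The KLK2 and KLK3 windows were identical at 81.7% of 300 bases with a shared run of 80 bases, where the other 54 pairs of member windows had 47.0% to 56.3% and runs of 7 to 11. The pattern comes from the KLK3 promoter, so its match there was fixed beforehand. Given the identity of the windows, the KLK2 match is not independent of it. These are matches of letters, and binding was not measured.

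KLK2, the trypsin-like kallikrein that can activate the KLK3 precursor, had 2 bright probe sets with nearly the same difference. At 209854_PM_s_at it lay at 11.26 and 11.12 in the LNCap ERG arrays, against 11.53 and 11.44 in the LNCap Vector arrays. At 210339_PM_s_at it lay at 9.19 and 9.38 in LNCap ERG and 9.55 and 9.63 in LNCap Vector. Neither probe set had an overlap between the groups. The log2 fold changes were -0.29 (standard error 0.10, 95% interval -0.54 to -0.05, adjusted p = 0.59 from limma) and -0.30 (standard error 0.11, 95% interval -0.57 to -0.04, adjusted p = 0.59), a level of 0.816 and 0.811 times that in LNCap Vector. Leaving out any single array kept them within -0.36 to -0.23 and -0.40 to -0.21.

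The other KLK2 probe sets were dim, and a difference between them and the bright pair was not tested. At 209855_PM_s_at the arrays had 5.66 and 5.57 in LNCap ERG and 5.74 and 5.63 in LNCap Vector, a log2 fold change of -0.07. At 1555545_PM_at they had 4.20 and 3.93 in LNCap ERG and 3.93 and 3.79 in LNCap Vector, a log2 fold change of 0.21. The groups overlapped at both, and their 95% intervals of -0.30 to 0.17 and -0.11 to 0.52 hold 0.

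KLK3 encodes prostate-specific antigen, the serum marker of prostate cancer, which cleaves the semenogelins. At 204582_PM_s_at it lay at 12.81 and 12.85 in the LNCap ERG arrays, against 12.94 and 12.97 in the LNCap Vector arrays. At 204583_PM_x_at it lay at 12.32 and 12.33 in LNCap ERG and 12.56 and 12.50 in LNCap Vector. The groups did not overlap at either. The log2 fold changes were -0.13 (standard error 0.09, 95% interval -0.34 to 0.09, adjusted p = 0.75 from limma) and -0.20 (standard error 0.09, 95% interval -0.42 to 0.02, adjusted p = 0.63). Leaving out any single array kept them within -0.14 to -0.11 and -0.23 to -0.17. The difference between KLK2 and KLK3 in these changes was not tested.

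The remaining KLK3 probe set, 231629_PM_x_at, varied more within the groups than between them. It had 6.74 and 7.10 in LNCap ERG and 6.51 and 7.05 in LNCap Vector, a log2 fold change of 0.14 with a 95% interval of -0.40 to 0.68. Its sign turned without the second LNCap ERG array (-0.045) and without the first LNCap Vector array (-0.13). The letters x and s in these identifiers mark probe sets whose probes can match more than 1 transcript, and KLK2 and KLK3 are close relatives in sequence, and how far a probe set of either also reads the other was not tested.

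KLK4, a kallikrein also known for clearing the enamel matrix of teeth, had positive log2 fold changes at all 5 of its probe sets, of 0.06 to 0.19. At 1555697_PM_at it lay at 6.92 and 6.89 in the LNCap ERG arrays, against 6.83 and 6.86 in the LNCap Vector arrays. At 1555737_PM_a_at it lay at 6.79 and 6.77 in LNCap ERG and 6.67 and 6.66 in LNCap Vector. The groups did not overlap at these or at the dim 224062_PM_x_at (4.95 and 5.03 in LNCap ERG, 4.72 and 4.87 in LNCap Vector), though the gaps were small. The log2 fold changes at the bright pair were 0.06 (standard error 0.09, 95% interval -0.15 to 0.28, adjusted p = 0.90 from limma) and 0.12 (standard error 0.09, 95% interval -0.10 to 0.33, adjusted p = 0.77). At the other dim ones, 233854_PM_x_at and 231782_PM_s_at, the groups overlapped, with log2 fold changes of 0.14 and 0.06. The probe sets of a gene read the same RNA and are not replicates.

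KLK15, the kallikrein that lies beside KLK3 and can activate its precursor in vitro, had a negative log2 fold change at each of 4 probe sets. At the only one above the level of other organ genes, 233477_PM_at, it lay at 6.01 and 6.13 in LNCap ERG and 6.12 and 6.15 in LNCap Vector, with overlap (log2 fold change -0.06, 95% interval -0.30 to 0.17, adjusted p = 0.90 from limma). At 221462_PM_x_at both LNCap ERG arrays (4.89 and 4.96) lay below both LNCap Vector arrays (5.12 on each), a log2 fold change of -0.20. The other KLK15 probe sets, 234495_PM_at and 234966_PM_at, were dimmer still, with log2 fold changes of -0.35 and -0.02 and overlap between the groups. The first of these was -0.59 without the first LNCap ERG array and -0.12 without the second. KLK11, a trypsin-like kallikrein found in seminal plasma, has 1 probe set here, at 3.86 and 3.57 in LNCap ERG and 3.55 and 3.55 in LNCap Vector. These KLK11 values lie near the median of other organ genes, 3.23, and its log2 fold change of 0.17 gives no size.

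Of the kallikreins outside the members, 9 were measured with 16 probe sets, and none was above the level of other organ genes on any array. Their values lay between 2.79 and 4.85. None passed the adjusted threshold, and before adjustment limma gave p under 0.05 for 0 on the higher side and 1 on the lower, against 4.05% of all probe sets in each direction. That one was KLK13 at 216670_PM_at, with 3.31 and 3.12 in LNCap ERG and 3.56 and 3.57 in LNCap Vector, while another KLK13 probe set had a log2 fold change of 0.19. KLK6, KLK5 and KLK12, the next by p, had 0.19, -0.19 and 0.17 at the probe sets concerned. So of 14 kallikreins measured, KLK2, KLK3, KLK4 and KLK15, which are neighbours in the gene order, had a probe set above that level on all arrays. For KLK15 this was 1 of 4 probe sets, and only just, with its lowest array at 6.01 against a level of 5.98. Of the 43 other organ genes themselves, 2 had such a probe set.

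**Figure D2:**
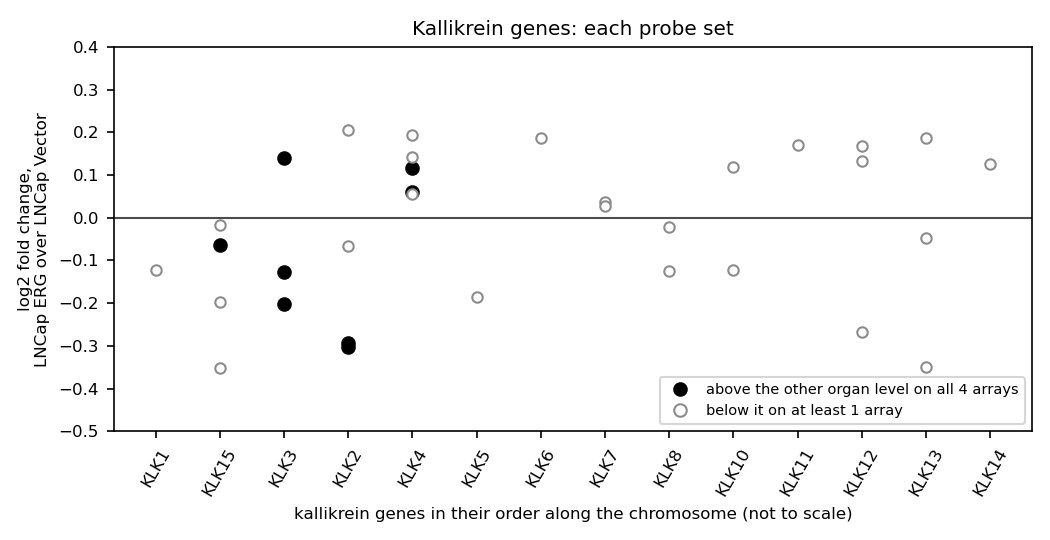
Log2 fold change of LNCap ERG over LNCap Vector (y axis) at each probe set of the 14 kallikreins measured, in gene order along chromosome 19 (x axis, not to scale). Filled points are probe sets above the level of other organ genes on all 4 arrays, which belong to KLK15, KLK3, KLK2 and KLK4, and the lowest of them are the KLK2 pair at -0.29 and -0.30.

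ACP3, prostatic acid phosphatase, a secreted and membrane enzyme that was a serum marker before prostate-specific antigen, had the highest log2 fold change of the 27 probe sets. At 204393_PM_s_at it lay at 6.65 and 6.58 in the LNCap ERG arrays, against 5.97 and 6.13 in the LNCap Vector arrays. The groups stood well apart, but the first LNCap Vector array was just under the level of other organ genes. The log2 fold change was 0.56 (standard error 0.10, 95% interval 0.31 to 0.81, adjusted p = 0.50 from limma), a level of 1.48 times that in LNCap Vector. Leaving out any single array gave 0.48 to 0.64, and its adjusted p lay between 0.068 and 0.66 over the settings that kept 4 arrays. The other ACP3 probe sets were dim, with overlap between the groups. At 237030_PM_at it had 3.74 and 3.78 in LNCap ERG and 3.75 and 4.21 in LNCap Vector (log2 fold change -0.22), and at 231711_PM_at 2.76 and 2.58 in LNCap ERG and 2.63 and 2.56 in LNCap Vector (0.07).

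AZGP1, zinc-alpha-2-glycoprotein, a secreted protein with the fold of a class I histocompatibility molecule, was above both LNCap Vector arrays in both LNCap ERG arrays at each of its 2 probe sets. At 209309_PM_at it lay at 8.30 and 8.01 in LNCap ERG and 7.96 and 7.46 in LNCap Vector. The nearest arrays of the groups almost met, and the LNCap Vector arrays stood farther apart than the LNCap ERG arrays. The log2 fold change was 0.45 (standard error 0.19, 95% interval -0.04 to 0.93, adjusted p = 0.64 from limma), and it was 0.19 without the second LNCap Vector array and 0.70 without the first. At 217014_PM_s_at AZGP1 had 6.56 and 6.36 in LNCap ERG and 6.28 and 6.28 in LNCap Vector, a log2 fold change of 0.18 (standard error 0.10, 95% interval -0.08 to 0.44, adjusted p = 0.71). It was 0.082 without the first LNCap ERG array and 0.28 without the second.

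MSMB, beta-microseminoprotein, which is abundant in normal prostate secretion, showed no separation of the groups. At 207430_PM_s_at it lay at 6.46 and 6.42 in LNCap ERG, between the 6.74 and 6.19 of LNCap Vector. The MSMB log2 fold change was -0.03 with a 95% interval of -0.49 to 0.44, wide enough to hold the differences seen at the bright KLK2 probe sets, and it was 0.25 without the first LNCap Vector array. At the dim 210297_PM_s_at it had 4.98 and 5.26 in LNCap ERG and 5.17 and 5.38 in LNCap Vector (-0.16). TGM4, the prostate transglutaminase that forms the copulatory plug in rodents, was at 2.86 to 3.22 over all arrays and its 3 probe sets, below the 3.23 median of other organ genes. Its log2 fold changes of -0.10, -0.19 and -4.07e-04 therefore do not describe a transcript that was read.

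**Figure D3:**
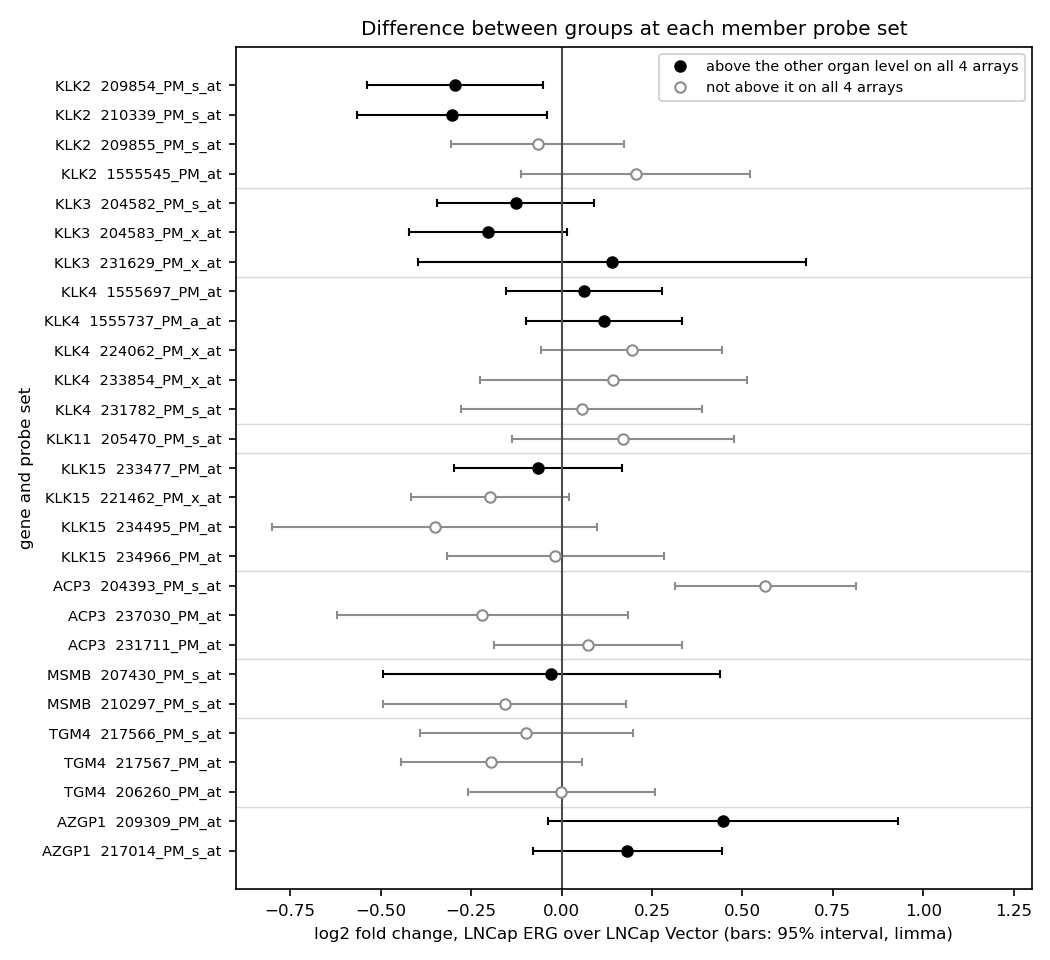
Log2 fold change of LNCap ERG over LNCap Vector (x axis) at each of the 27 probe sets (y axis), with 95% intervals from limma. Filled points were above the level of other organ genes on all 4 arrays. The intervals of the KLK2 pair (-0.29 and -0.30) and of the first ACP3 probe set (0.56) leave out 0, before any adjustment for the number of probe sets.

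Genes around the members were counted in the same fit. A list of other secreted prostate products, which also holds the cytoskeletal NEFH and the membrane-anchored PSCA, was measured at 14 genes with 16 probe sets. None passed after adjustment. Before adjustment limma gave p under 0.05 for 4 on the higher side and 1 on the lower, against 4.05% of all probe sets in each direction. NEFH and PSCA were not among these. TFF3, an epithelial trefoil peptide, had 7.11 and 7.10 in LNCap ERG and 6.56 and 6.50 in LNCap Vector (log2 fold change 0.58, adjusted p = 0.41 from limma). PIP, the prolactin-induced protein that binds AZGP1, had 5.77 and 5.57 in LNCap ERG and 5.07 and 5.07 in LNCap Vector, all below the level of other organ genes (0.60, adjusted p = 0.50). SCGB1D2, a secretoglobin, was dim too (0.36), and GDF15, a secreted stress cytokine, had 12.75 and 12.72 in LNCap ERG and 12.46 and 12.44 in LNCap Vector (0.29, adjusted p = 0.58). The 4 probe sets of this list above the level had a median of 0.22.

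Of the inhibitors and substrates of kallikreins, 12 genes with 25 probe sets were measured and none passed, with 5 on the higher side and 0 on the lower by limma's p under 0.05 before adjustment, against the same 4.05% each way. Of those 5, 4 belong to FN1, fibronectin, a matrix protein that kallikreins can cut. At the FN1 probe set with the smallest p, 216442_PM_x_at, it had 9.13 and 9.06 in LNCap ERG and 8.59 and 8.69 in LNCap Vector (log2 fold change 0.45, adjusted p = 0.53 from limma). The other 3 of these FN1 probe sets had 0.24 to 0.41, and its 3 dim ones -0.07 to -0.01. SPINT1, a membrane inhibitor of trypsin-like proteases, had 4.50 and 4.63 in LNCap ERG and 4.15 and 4.29 in LNCap Vector at a dim probe set (0.34, adjusted p = 0.58), and 0.23 at its bright one. IGFBP3, a growth factor binding protein that KLK3 cleaves, had -0.16, and A2M, the general protease inhibitor alpha-2-macroglobulin, -0.51 with overlap, both below the level of other organ genes at the probe sets named. SEMG1, a semenogelin, was at 2.82 to 2.96.

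Among the 11 bright member probe sets, the groups separated downward at 2 of KLK2 and at 2 of the 3 of KLK3. They separated upward at KLK4 (0.06 and 0.12) and AZGP1 (0.45 and 0.18). At the other 3, of KLK3 (0.14), KLK15 (-0.06) and MSMB (-0.03), the groups overlapped. Without a test of androgen response in these cells, the members can be set beside other genes known to respond to androgen. Of these, 16 genes with 49 probe sets were measured. None passed the adjusted threshold, 2 probe sets lay on the higher side and 18 on the lower by p under 0.05 before adjustment (4.05% in each direction over all probe sets), and those 18 came from 9 genes. All 4 arrays were above the level of other organ genes at 26 probe sets of 14 genes. Both LNCap ERG arrays lay below both LNCap Vector arrays at 20 of these, from 10 genes, and above them at 1. Of all probe sets as bright, 25.9% and 22.0% did so. The median log2 fold change of the 26 was -0.27. Probe sets of a gene are not replicates. The list was chosen with earlier results of these data known, so these counts are no test of it. FKBP5 is a co-chaperone of steroid receptors. At 224856_PM_at it had 8.33 and 8.46 in LNCap ERG and 9.09 and 9.18 in LNCap Vector (-0.74, adjusted p = 0.33 from limma). Its brightest probe set, 224840_PM_at, had 10.37 and 10.41 in LNCap ERG and 10.95 and 10.81 in LNCap Vector (-0.49, adjusted p = 0.52). The FKBP5 probe set with the smallest p, 204560_PM_at, had -0.89 (adjusted p = 0.24). It was above the level of other organ genes on 1 array only. CENPN, a centromere protein, had 10.40 and 10.45 in LNCap ERG and 10.89 and 10.87 in LNCap Vector (-0.45, adjusted p = 0.52). STEAP4, a metalloreductase, was below the level of other organ genes on every array. It had -0.71 at 225987_PM_at, and 0.07 with overlap at 220187_PM_at. NDRG1, a gene of differentiation and stress, went the other way, with 10.79 and 10.82 in LNCap ERG and 10.36 and 10.35 in LNCap Vector (0.45, adjusted p = 0.52). By comparison the 10 bright probe sets of luminal markers had log2 fold changes of 0.01 to 0.08. The 2 lists are not separate. Both hold SLC45A3, whose bright probe set (0.04) is counted in each, and TRPM8, which was dim.

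**Figure D4:**
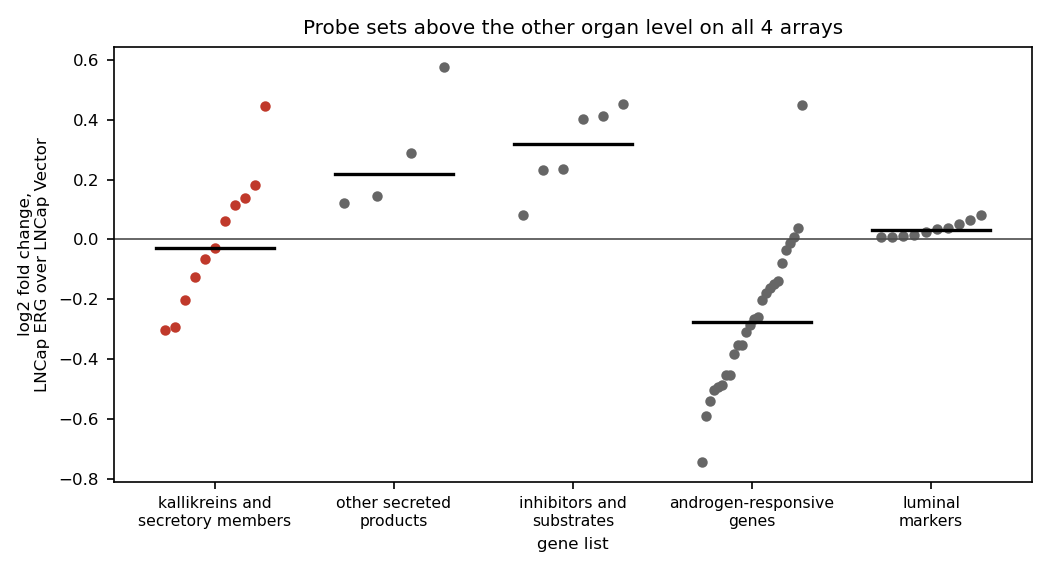
Log2 fold change of LNCap ERG over LNCap Vector (y axis) of the probe sets above the level of other organ genes on all 4 arrays, in 5 gene lists (x axis). Each point is 1 probe set, sorted by value within its list, and the bars are medians. The 11 points of the members lie on both sides of 0, the 26 of the androgen-responsive genes have a median of -0.27, and the 10 luminal markers lie at 0.01 to 0.08. The bright SLC45A3 probe set is drawn in both of these last lists.

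The pattern of KLK3 over the 4 arrays was shared by many genes. After each probe set was centred on its mean, the closest to 204582_PM_s_at, by root mean square difference, were probe sets of ASAH1 (0.0045), ISG20L2 (0.0048) and TXNDC12 (0.0061), with log2 fold changes of -0.13, -0.12 and -0.12. Of 12985 bright probe sets of other genes, 1791 lay within 0.05 of it, so this nearness over 4 arrays does not mark these genes out.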

How the data were processed

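RNA of 2 LNCap ERG and 2 LNCap Vector samples was labelled with biotin and hybridised to Affymetrix arrays. The authors analysed the scans with dChip and normalized them with RMAexpress, and they deposited 1 intensity per probe set, read as linear from medians of 14.0 to 14.4 and maxima of 14962 to 15344. The version of each is not given in the sources used here. The methods name U133 2.0 arrays, while the identifiers are of the perfect-match form of that design.

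Values were logged (base 2), without the 2 probe sets that lack a value on an array. The platform annotation gave 39464 of the rest 1 gene, and 838 several and 11661 none. Groups were compared on all 51963 probe sets by limma 3.58.1 under R 4.3.3, using lmFit and eBayes (2 residual and 3.55 prior degrees of freedom), with Benjamini-Hochberg adjustment at 0.05. The fit was tested on simulated data. Promoters were read from RefSeq windows with Python 3.11.15 and Biopython 1.88, and plots drawn with matplotlib 3.10.9. The members and all lists were chosen with earlier results of these data known. The rule for names was every member probe set, up to 4 genes of each list with the smallest p, and the 3 genes nearest to KLK3. SEMG1, COL1A1, ENO2 and the luminal genes were named as well, after their values were seen. KLK9 was among the listed genes not analysed here. Alternatives were other moderation, filters, summaries per gene, normalizations, an offset, the replicate block, the t-test of the methods, and fits without each array in turn. Arrays have no read depth, and their number limits the precision.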

Additional observations from a re-analysis of the deposited data

How the results depend on the processing

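The number of member probe sets past the adjusted threshold was 0 in each direction under all 15 alternatives run, and of all 230 values of member probe sets with 4 arrays kept, 229 kept their sign and their side of the threshold. The exception was TGM4 at 206260_PM_at, -4.07e-04 as reported and 0.0062 with housekeeping centring. Over all features the count of calls was 0 as reported and 70 with trended and robust moderation, 53 with only probe sets above the level of other organ genes, 2 with the brightest probe set per gene, 14 with 1 mean value per gene, 10 with housekeeping centring, 4 with log2(value + 16) and 1 by the t-test that the methods name with Benjamini-Hochberg adjustment, where 1 probe set had no p. By means over a gene's probe sets KLK2 was at -0.11, KLK3 at -0.06, ACP3 at 0.14 and AZGP1 at 0.31.

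With 1 array left out, 12 of 108 values turned sign and none passed. The remaining array of that group then has no spread of its own and takes that of the others. The ranges were -0.13 to 0.41 for KLK3 231629_PM_x_at, -0.016 to 0.30 for KLK4 233854_PM_x_at, -0.087 to 0.20 for KLK4 231782_PM_s_at, -0.16 to 0.12 for KLK15 234966_PM_at, -0.44 to 0.0073 for ACP3 237030_PM_at, -0.017 to 0.16 for ACP3 231711_PM_at, -0.30 to 0.25 for MSMB 207430_PM_s_at, -0.21 to 0.019 for TGM4 217566_PM_s_at and -0.095 to 0.094 for TGM4 206260_PM_at.

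The groups share replicate numbers. With the replicate block 0 probe sets passed and KLK2 209854_PM_s_at stayed at -0.29. Deviations of same-numbered arrays correlated at 0.071 over all probe sets and 0.15 over bright ones, and 2 pairs do not settle whether the numbers pair the arrays.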
